A study of Mus musculus with 2 samples.

Results

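The genes described here are the fibroblast growth factor (FGF) receptors and the response genes of the ERK kinase pathway: *Fgfr1*, *Fgfr2*, *Spry1*, *Spry2*, *Spry4*, *Dusp4*, *Dusp6*, *Etv4*, *Etv5* and *Egr1*. These 10 members were taken by symbol from 21935 gene symbols in the deposited expression tables, and a symbol with several RefSeq transcript entries was represented by the entry of highest mean RPKM. RPKM is the number of reads divided by transcript length and by the total of aligned reads, a level per length. All 10 members had an RPKM above 1 in at least 1 library, as did 11804 genes in all. The samples were mouse R1 embryonic stem (ES) cells kept for 72 h without LIF, a cytokine that holds ES cells in self-renewal. Polyadenylated RNA gave 1 library from shLuc ES cells, which carry a lentiviral short hairpin RNA (shRNA) against luciferase as the control, and 1 library from shKdm5b ES cells, in which the shRNA depletes *Kdm5b*, a histone H3 lysine 4 demethylase. Both populations were infected with lentivirus and selected with puromycin. The study's methods give routine culture on irradiated mouse embryonic fibroblasts, and differentiation without LIF on gelatin-coated or low-attachment dishes, and do not say which dish these libraries came from. With 1 library per condition no difference has a replicate check, no p-value is given, and an effect of the shRNA cannot be told apart from a difference between the preparations.

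FGF ligands bind receptor tyrosine kinases, and in ES cells the signal runs through adaptors and RAS to the kinases RAF, MEK and ERK. ERK signalling is known for moving ES cells out of naive pluripotency, and inhibitors of MEK help to hold cells in that state. ERK also switches on its own restraint: Sprouty proteins act on the path between receptor and RAF, dual-specificity phosphatases remove the activating phosphates of MAP kinases, and ETV4 and ETV5 are ETS transcription factors whose genes respond to FGF. EGR1 is a zinc finger transcription factor of the immediate early response.

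In shKdm5b ES cells 4 members, *Spry4*, *Dusp4*, *Etv4* and *Egr1*, were more than 1.5-fold lower than in shLuc ES cells, 1 member, *Dusp6*, was more than 1.5-fold higher, and 5 lay within 1.5-fold. The same fold and RPKM thresholds were passed by 48.3% of the 11804 genes (16.3% higher and 32.0% lower), so that 5 of 10 members is a share near that of all genes. The median log2 ratio of shKdm5b to shLuc was -0.34 over the 10 members and -0.21 over all genes (middle 50% of genes from -0.76 to 0.34). The members did not move as a block, and within 3 of the 4 families a member past 1.5-fold stood beside a relative that was within 1.5-fold or on the other side.

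**Figure D1:**
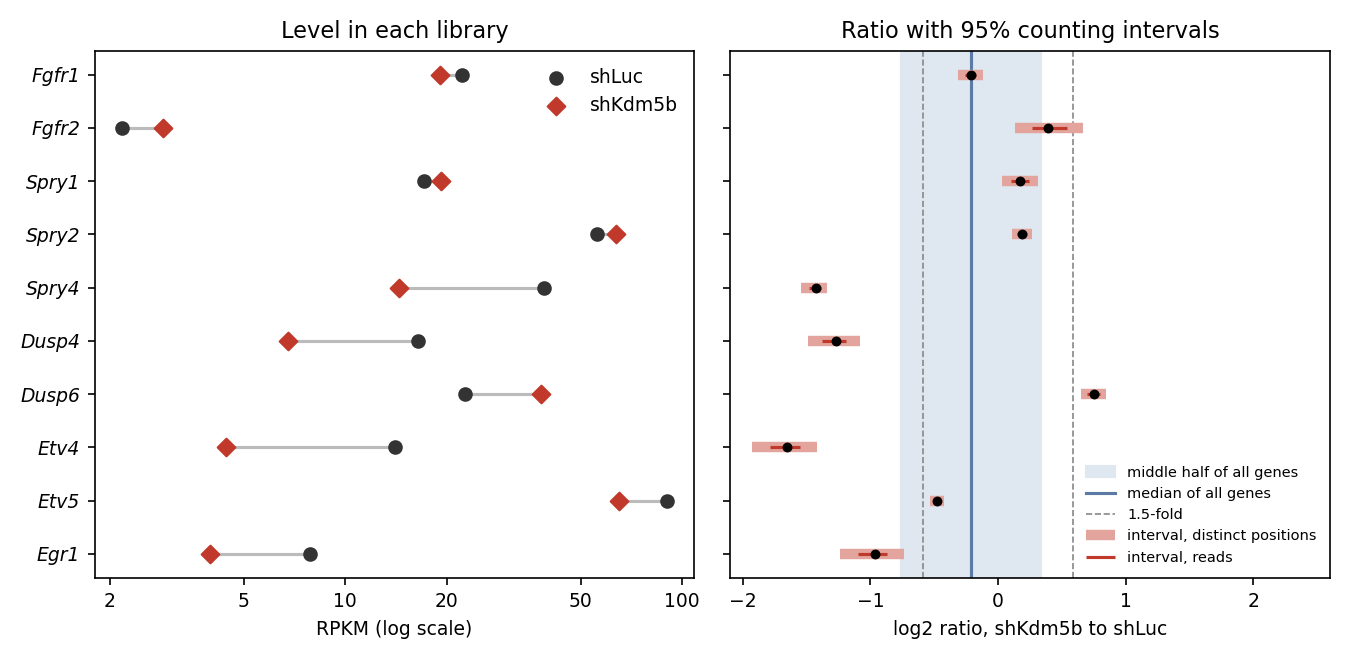
The left panel gives the RPKM of each gene in shLuc ES cells (circles) and the shKdm5b library (diamonds) on a log axis; the right panel gives the log2 ratio of shKdm5b to shLuc with 95% counting intervals from reads (thin bars) and from reads scaled to distinct positions (thick bars). *Spry4*, *Dusp4*, *Etv4* and *Egr1* lie left of the dashed line of 1.5-fold, *Dusp6* lies right of it, and the shaded band runs from -0.76 to 0.34, the middle 50% of all genes.

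The depth was 78172698 aligned reads of 50 bases in shLuc ES cells and 72702698 in shKdm5b ES cells. Of these reads, 32.9% in shLuc ES cells and 20.1% in shKdm5b ES cells lay at distinct positions, so many reads repeated a position already seen. The 95% intervals below are exact Clopper-Pearson intervals, computed from how a gene's reads split between the libraries, and concern counting error only. These intervals take each read as an independent molecule, which amplified reads are not, so they can be too narrow. A wider interval is given with them, for which the reads were first reduced to the share of distinct positions of their library. For a difference between a pair of genes, the interval from reads is exact conditional and the wider interval is a normal approximation. No wider interval was computed for an exon relative to its entry. *Kdm5b*, the targeted gene, had an RPKM of 104 in shLuc ES cells and 3.01 in shKdm5b ES cells. Log2 ratios were taken on the log2(RPKM + 0.1) scale. Across 11535 genes, transcripts richer in GC had lower log2 ratios (Spearman correlation -0.53, a description across genes of the same pair of libraries), and a lowess curve of the log2 ratio on GC content was used to give each ratio a second time. Scaling by the edgeR TMM method raised the log2 ratios of well expressed genes by about 0.22, less where the RPKM is near the pseudocount, and gave 2864 genes (24.1%) higher and 2758 genes (23.2%) lower, 47.2% in either direction. Ratios are from bulk RNA, in which fewer cells of a kind and less RNA per cell cannot be told apart.

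Of the receptors, *Fgfr1* (chr8:25518789-25574779, plus strand, in GRCm38 as all gene coordinates here) was the main form in both libraries. Its RPKM was 22.2 in shLuc ES cells (8233 reads) and 19.1 in shKdm5b ES cells (6600 reads), a log2 ratio of -0.21 (95% counting interval -0.26 to -0.17, wider interval -0.31 to -0.12). This ratio equals the median of all genes, and its sign depends on the scaling, with 0.01 under TMM and 0.50 after the GC correction. *Fgfr2* (chr7:130162451-130266263, minus strand) was the least expressed member, with an RPKM of 2.17 in shLuc ES cells (825 reads) and 2.87 in shKdm5b ES cells (1014 reads). Its log2 ratio was 0.39 (0.27 to 0.54, wider interval 0.13 to 0.67), within 1.5-fold and above the *Fgfr1* ratio. *Fgfr1* stood 10.2 times above *Fgfr2* per length in shLuc ES cells and 6.67 times in shKdm5b ES cells. The summed RPKM of these receptors was 24.4 and 22.0, with 91.1% and 87.0% of it from *Fgfr1*. A difference between the log2 ratios of a pair of genes does not depend on the scaling of the libraries. For *Fgfr1* less *Fgfr2* this difference was -0.62 (-0.76 to -0.47, wider interval -0.90 to -0.34), but -0.08 after the GC correction. *Fgfr1* transcripts have a GC content of 57.1% and *Fgfr2* transcripts 49.9%.

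The deposited tables hold 3 entries of *Fgfr1*, and their reads separated a single exon of the gene. The longest entry, of 5008 bases, and the entry of 4741 bases differ by 267 bases, the length of the coding exon 3 of 18 that encodes most of the first immunoglobulin-like loop of the receptor. In the GENCODE M21 annotation of GRCm38 this exon lies at chr8:25555508-25555774 on the plus strand. Its mouse sequence is shown because the reads of this exon differed more between the libraries than those of any whole receptor entry, with the letters in lower case since no part is singled out:
Fgfr1 exon 3: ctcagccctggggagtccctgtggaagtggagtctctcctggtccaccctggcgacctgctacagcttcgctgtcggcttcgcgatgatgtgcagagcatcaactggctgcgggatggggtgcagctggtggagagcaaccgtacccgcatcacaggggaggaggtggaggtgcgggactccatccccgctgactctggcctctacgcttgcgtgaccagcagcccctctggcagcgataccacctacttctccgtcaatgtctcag
The longest entry held 501 more reads than the entry without the exon in shLuc ES cells and 125 more in shKdm5b ES cells. Taken as reads on the exon, these are 24.0 RPKM and 6.44 RPKM, or 1.88 and 0.468 reads per base. The exon was thus at 108% of the level of the entry without it in shLuc ES cells and at 33.6% in shKdm5b ES cells. The log2 ratio of the exon was -1.88 (-2.19 to -1.61, wider interval -2.58 to -1.30). Relative to the entry without the exon, which does not depend on the library totals, it was -1.68 (exact conditional interval -1.98 to -1.39). The exon has a GC content of 62.9%, and the 162 genes whose transcripts lie within 1 percentage point of it had a median log2 ratio of -0.90, with 5% of them below -2.13. The part of GC content in the difference of the exon was not tested. The subtraction assumes that the entries are nested, and the exon was chosen after its values were seen.

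**Figure D2:**
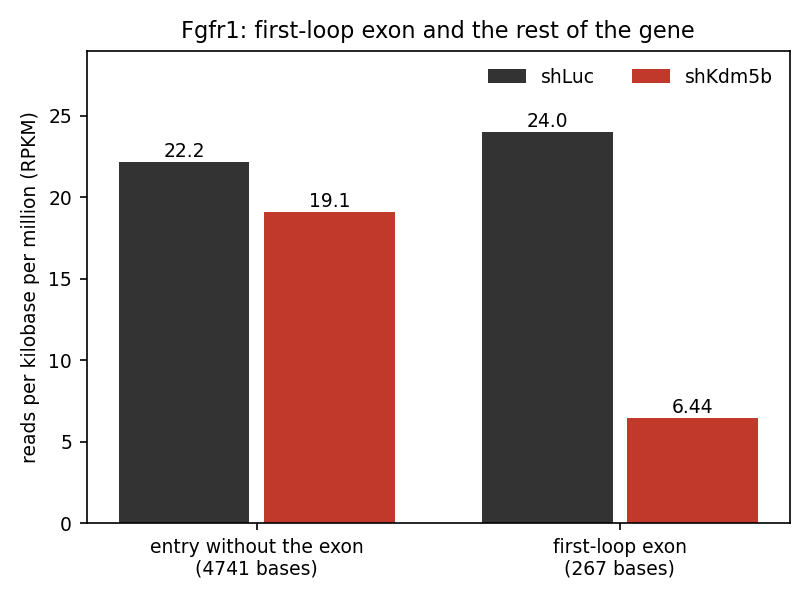
Bars give the RPKM, on an axis from 0, of the *Fgfr1* entry without the first-loop exon and of that exon alone in the shLuc and shKdm5b libraries. The entry stood at 22.2 and 19.1 RPKM, while the exon stood at 24.0 and 6.44 RPKM.

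The 3rd *Fgfr1* entry lacks 6 bases at the end of exon 4, and 18 reads in shLuc ES cells and 6 reads in shKdm5b ES cells separated it from the longest entry, too few to tell a difference from that of the gene (log2 ratio relative to the gene -1.21, exact conditional interval -2.83 to 0.19). The 2 entries of *Fgfr2* differ in the first-loop exon, in a coding exon of 78 bases and in the choice between the alternative exons of the third immunoglobulin-like loop, known as IIIc (145 bases) and IIIb (148 bases). Their log2 ratios were 0.39 and 0.39. The net difference of 32 reads in shLuc ES cells and 41 reads in shKdm5b ES cells mixes these exons, so a change in their use was not detectable from the entries.

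The Sprouty genes, whose products restrain receptor signalling, differed among themselves. *Spry4* (chr18:38586247-38601415, minus strand) had an RPKM of 38.9 in shLuc ES cells (13946 reads) and 14.4 in shKdm5b ES cells (4790 reads), 36.9% of the shLuc level. Its log2 ratio was -1.43 (-1.48 to -1.39, wider interval -1.54 to -1.34), with 6.74% of all genes below it. *Spry4* was the member whose ratio stood lowest after the GC correction, at -1.13. *Spry2* (chr14:105891947-105896819, minus strand), the most expressed Sprouty gene, had an RPKM of 55.9 (9115 reads) and 63.7 (9659 reads). *Spry1* (chr3:37639958-37644598, plus strand) had an RPKM of 17.1 (3319 reads) and 19.2 (3476 reads). The log2 ratios of *Spry2*, 0.19 (0.15 to 0.23, wider interval 0.11 to 0.27), and *Spry1*, 0.17 (0.10 to 0.24, wider interval 0.03 to 0.31), were within 1.5-fold and nearly equal. Their difference was -0.02 (-0.10 to 0.06, wider interval -0.18 to 0.14) for *Spry1* less *Spry2*. *Spry4* was apart from both, with a difference of -1.63 (-1.69 to -1.56, wider interval -1.76 to -1.50) from *Spry2* and -1.61 (-1.69 to -1.52, wider interval -1.78 to -1.44) from *Spry1*. After the GC correction these differences were -1.23 and -1.95, and that of *Spry1* less *Spry2* was 0.72, since *Spry1* (GC content 56.1%) moved to 0.82 and *Spry2* (46.2%) to 0.10. The summed Sprouty RPKM was 112 in shLuc ES cells and 97.2 in shKdm5b ES cells. The share of *Spry4* in that sum was 34.8% in shLuc ES cells and 14.8% in shKdm5b ES cells, and that of *Spry1* was 15.3% and 19.8%.

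The phosphatase genes lay on opposite sides of 1.5-fold. *Dusp6* (chr10:99263231-99267488, plus strand), which encodes a cytoplasmic phosphatase selective for ERK, had an RPKM of 22.7 in shLuc ES cells (4951 reads) and 38.1 in shKdm5b ES cells (7746 reads). It was 1.68-fold higher in shKdm5b ES cells, with a log2 ratio of 0.75 (0.70 to 0.80, wider interval 0.65 to 0.85), and 88.3% of all genes had a lower ratio. *Dusp4* (chr8:34807297-34819894, plus strand), which encodes a nuclear MAP kinase phosphatase, had an RPKM of 16.4 (3119 reads) and 6.76 (1193 reads), 2.41-fold lower in shKdm5b ES cells on the log2(RPKM + 0.1) scale. Its log2 ratio was -1.27 (-1.38 to -1.19, wider interval -1.49 to -1.08). *Dusp6* stood 1.38 times above *Dusp4* in shLuc ES cells and 5.64 times above it in shKdm5b ES cells. The difference of the log2 ratios for *Dusp4* less *Dusp6* was -2.03 (-2.14 to -1.92, wider interval -2.26 to -1.81). It was the widest of the 6 pairs compared within families on the deposited scaling. After the GC correction that difference was -1.52, narrower than the -1.95 of *Spry4* less *Spry1*. The summed RPKM of the pair was 39.1 in shLuc ES cells and 44.9 in shKdm5b ES cells, so the level of the sum differed little while the share of *Dusp6* in it was 57.9% and 84.9%.

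*Dusp6* was the member past 1.5-fold in the higher direction, and its promoter is shown as the start site of the only such member. The RefSeq promoter table of GRCm38.p6 holds windows of 300 bases, from 250 bases before to 50 bases after the start site, for 5 members (*Spry1*, *Spry2*, *Fgfr2*, *Dusp6* and *Etv5*, the last with 2 windows). The *Dusp6* window, at chr10:99262981-99263280 on the plus strand, is printed 5′ to 3′ with each match to CGGAA, a core found in ETS binding sites, in capitals on either strand:
Dusp6 promoter: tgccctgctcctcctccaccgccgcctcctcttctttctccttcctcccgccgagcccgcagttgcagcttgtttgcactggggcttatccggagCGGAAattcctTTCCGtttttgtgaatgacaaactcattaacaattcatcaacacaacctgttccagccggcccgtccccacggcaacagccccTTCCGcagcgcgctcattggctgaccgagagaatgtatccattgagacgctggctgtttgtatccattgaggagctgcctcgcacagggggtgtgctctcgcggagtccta
It holds 3 matches, which begin at positions -155, -144 and -61 from the start site. Of 32851 windows in the table, 29.9% hold a match to CGGAA and 3.60% hold 3 or more. The *Spry2* window holds 1 match, and the *Spry1*, *Fgfr2* and *Etv5* windows hold none. The *Fgfr2* window lies before the start of the *Fgfr2* transcript used here. No window is held for the lower members *Spry4*, *Dusp4*, *Etv4* and *Egr1*, so *Dusp6* cannot be compared with them. None of the 6 windows holds CCGGAAGT, a longer ETS site that includes CGGAA (3.89% of windows), the cAMP response element TGACGTCA (1.79%), the AP-1 site TGANTCA (7.81%) or a CArG box, the site of serum response factor (1.63%). These matches describe letters in a window and not binding.

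Of the ETS factor genes, *Etv4* was more than 1.5-fold lower in shKdm5b ES cells and *Etv5* was within 1.5-fold. *Etv5* (chr16:22381309-22439719, minus strand) was the most expressed member, with an RPKM of 90.4 in shLuc ES cells (27018 reads) and 65.0 in shKdm5b ES cells (18055 reads). Its log2 ratio was -0.48 (-0.50 to -0.45, wider interval -0.53 to -0.42), within 1.5-fold. The sign of the *Etv5* ratio held under TMM (-0.26) and the GC correction (-0.13) and turned after the GC and length correction (0.02). *Etv4* (chr11:101769742-101785310, minus strand) had an RPKM of 14.1 in shLuc ES cells (2568 reads) and 4.42 in shKdm5b ES cells (750 reads), 31.4% of the shLuc level. Its log2 ratio was -1.65 (-1.79 to -1.55, wider interval -1.93 to -1.42), the lowest of the 10 members, with 4.04% of all genes below it. *Etv4* has the highest GC content of the members, 58.8%, at which the curve over all genes stood at -0.80, and its ratio after the GC correction was -0.86. *Etv5* stood 6.43 times above *Etv4* in shLuc ES cells and 14.7 times in shKdm5b ES cells. The difference of their log2 ratios was -1.19 (-1.32 to -1.07, wider interval -1.45 to -0.94) for *Etv4* less *Etv5*, and -0.73 with the GC correction.

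*Egr1* (chr18:34861207-34864956, plus strand) had an RPKM of 7.84 in shLuc ES cells (1882 reads) and 3.97 in shKdm5b ES cells (886 reads), 50.6% of the shLuc level. Its log2 ratio was -0.96 (-1.10 to -0.87, wider interval -1.24 to -0.74). The GC correction took it to -0.49, and correction for GC and length to -0.40, both within 1.5-fold. The other genes of a listed set of immediate early genes, which respond to many signals within minutes and need no new protein, did not share one direction. Of 19 genes, 14 had an RPKM above 1, of which 4 were more than 1.5-fold lower and 3 higher in shKdm5b ES cells, a share near the 48.3% of all genes. *Junb* (10.4 and 2.82 RPKM, log2 ratio -1.84) and *Ier2* (75.1 and 31.0 RPKM, log2 ratio -1.28) were lower, as were *Jund* (log2 ratio -0.73) and *Atf3* (log2 ratio -0.60). *Fos* (1.84 and 3.51 RPKM, log2 ratio 0.90), *Ier3* (13.8 and 22.2 RPKM, log2 ratio 0.69) and *Ctgf* (7.18 and 12.1 RPKM, log2 ratio 0.74) were higher. The close relatives of *Egr1* were low in both libraries, with 51 and 25 reads for *Egr2*, 2 and 0 for *Egr3*, and 36 and 16 for *Egr4*. The median log2 ratio of the 14 expressed genes was 0.15. With the GC correction, 15 genes had an RPKM above 1 in at least 1 library, of which 7 were higher and 1, *Junb*, was lower, beside 19.1% and 17.9% of all genes.

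The order of levels within each library was led by *Etv5* and closed by *Fgfr2*. In shLuc ES cells *Etv5* was followed by *Spry2*, *Spry4*, *Dusp6*, *Fgfr1*, *Spry1*, *Dusp4*, *Etv4* and *Egr1*. Neighbours in that order differed beyond the wider counting interval except *Dusp6* and *Fgfr1* (level ratio 1.02, 0.958 to 1.08) and *Spry1* and *Dusp4* (level ratio 1.04, 0.952 to 1.13). In shKdm5b ES cells the order was *Etv5*, *Spry2*, *Dusp6*, *Spry1*, *Fgfr1*, *Spry4*, *Dusp4*, *Etv4*, *Egr1* and *Fgfr2*. Here the neighbours not set apart were *Etv5* and *Spry2* (level ratio 1.02, 0.966 to 1.08), *Spry1* and *Fgfr1* (interval of the level ratio 0.914 to 1.10) and *Etv4* and *Egr1* (level ratio 1.11, 0.892 to 1.39). *Spry4* went from rank 3 in shLuc ES cells to rank 6 in shKdm5b ES cells, and no other member moved by more than 2 ranks.

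The scaling and base composition of the libraries bear on these ratios. The transcripts of the members have GC contents from 46.2% to 58.8%, with 7 of 10 above the median of the genes compared, 50.5%. In the tenth of genes with the GC content of *Etv4* the median log2 ratio was -0.88, in that of *Fgfr1* -0.75, in that of *Spry4* and *Etv5* -0.33, and in that of *Spry2* 0.10. *Spry4*, *Dusp4* and *Etv4* were more than 1.5-fold lower, and *Dusp6* more than 1.5-fold higher, under the deposited scaling and under all 7 alternatives of pseudocount, scaling, entries, GC content and length. The share of all genes past 1.5-fold was 40.3% and 49.2% with pseudocounts of 1 and 0.01, 47.4% with median of ratios scaling, 48.4% with summed entries, 37.0% with the GC correction (19.1% higher, 17.9% lower) and 32.2% with GC and length. *Egr1* was past 1.5-fold under the deposited scaling and 5 of these 7 alternatives. *Spry1* passed 1.5-fold in the higher direction after the GC correction (0.82), as did *Fgfr2* under TMM (0.60) and *Fgfr1* after the GC and length correction (0.67). With the GC correction 5 members passed, 2 higher and 3 lower, and with GC and length 7 passed, 4 higher and 3 lower. A fold change above 2 was reached by 3 members, all lower, and by 22.8% of all genes (16.5% lower). An RPKM threshold of 11 and no RPKM threshold gave 47.6% and 42.1% of all genes. The exact test that follows used TMM factors, while the fold and RPKM thresholds kept with it were on the deposited scaling. The edgeR exact test, which with 1 library each compares libraries and rests on an assumed dispersion, called, with the fold and RPKM thresholds kept, 47.0% of genes at a dispersion of 0, 31.3% at 0.01 and 2.30% at 0.04. *Spry4*, *Dusp4*, *Dusp6* and *Etv4* were called at 0.01, and none of the 10 at 0.04, where *Kdm5b* was.

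**Figure D3:**
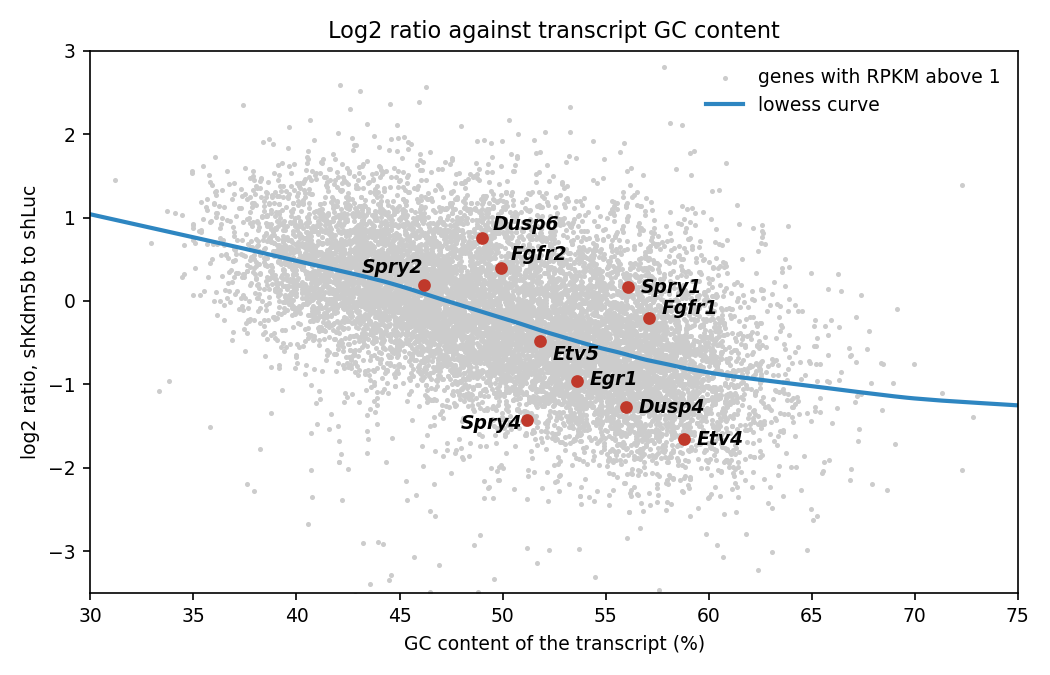
Each grey point is a gene with an RPKM above 1, with the GC content of its transcript in percent on the x axis and its log2 ratio of shKdm5b to shLuc on the y axis; the line is the lowess curve and the red points are the 10 members. *Spry4*, *Dusp4*, *Etv4*, *Egr1* and *Etv5* lie below the curve, and *Dusp6*, *Fgfr2*, *Spry1*, *Fgfr1* and *Spry2* lie above it.

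**Figure D4:**
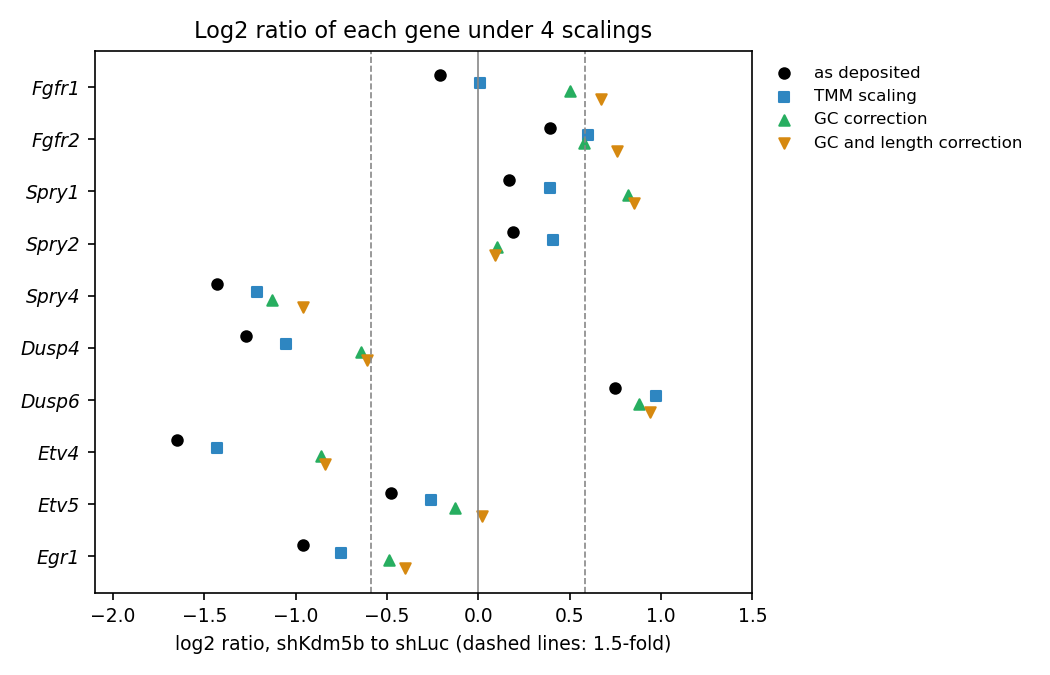
Points give the log2 ratio of each gene as deposited, with TMM scaling, with the GC correction, and with correction for GC and length, with dashed lines at 1.5-fold. *Spry4*, *Dusp4* and *Etv4* stay left of the lower line and *Dusp6* right of the upper line at all 4 values, while *Fgfr1* runs from -0.21 to 0.67.

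The other genes of the pathway were described from a list of 65, of which 55 had an RPKM above 1. Of these, 18 were more than 1.5-fold lower and 7 higher in shKdm5b ES cells, against 32.0% and 16.3% of all genes, with a median log2 ratio of -0.31. After the GC correction 8 of 54 were lower and 11 higher, against 17.9% and 19.1% of all genes. The median was then -0.09, and -0.02 over all genes. Among the ligands, *Fgf4*, the main FGF of ES cells, had an RPKM of 82.9 in shLuc ES cells and 58.4 in shKdm5b ES cells (log2 ratio -0.51). *Fgf5*, a marker of the epiblast, had 22.6 and 31.1 RPKM (log2 ratio 0.46), and *Fgf15* had 72.8 and 65.0 RPKM. These 3 ligands were within 1.5-fold. *Fgf1* (4.12 and 1.65 RPKM, log2 ratio -1.27) and *Fgf3* (1.34 and 0.703 RPKM, log2 ratio -0.84) were lower, and *Fgf18* (1.60 and 4.35 RPKM, 136 and 343 reads, log2 ratio 1.38) was higher. After the GC correction *Fgf1* (-1.24) and *Fgf18* (2.03) stayed past 1.5-fold and *Fgf3* (-0.22) did not. *Fgf17* (1.10) and *Fgf8* (0.69) were then higher. *Flrt3*, listed with the other receptors and co-receptors (1.84 and 1.23 RPKM, log2 ratio -0.55), was then lower, at -0.87. *Fgfr4* was near the RPKM threshold, at 1.07 and 0.551 RPKM, and *Fgfr3* was at 0.278 and 0.146 RPKM, so *Fgfr1* was the main receptor gene of the family at this time.

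Of the 10 adaptors and regulators next to the receptor, *Ptpn11*, which encodes the phosphatase SHP2, was lower (17.5 and 7.59 RPKM, log2 ratio -1.19). *Sos2*, a RAS exchange factor (2.14 and 4.21 RPKM, log2 ratio 0.94), *Frs3* (2.74 and 4.61 RPKM, log2 ratio 0.73) and *Rasa1*, a RAS GTPase activating protein (12.1 and 22.7 RPKM, log2 ratio 0.90), were higher. These are 1 lower and 3 higher of 10, beside 32.0% and 16.3% of all genes. After the GC correction *Ptpn11* (-0.84), *Sos2* (0.74) and *Frs3* (1.61) stayed past 1.5-fold and *Rasa1* (0.53) did not. In the kinase cascade, relatives stood on opposite sides. *Map2k1*, which encodes MEK1, had an RPKM of 28.9 in shLuc ES cells and 54.8 in shKdm5b ES cells (log2 ratio 0.92), and *Map2k2*, which encodes MEK2, 18.5 and 8.40 RPKM (log2 ratio -1.13). *Hras*, entered as *Hras1*, was lower (20.5 and 8.76 RPKM, log2 ratio -1.22), as was *Ksr1*, a scaffold of the cascade (log2 ratio -1.31), and *Araf* was higher (log2 ratio 1.08). *Mapk3*, which encodes ERK1, was lower (50.2 and 30.1 RPKM, log2 ratio -0.74). The GC correction took *Hras1* to -0.36, *Map2k2* to -0.26 and *Mapk3* to 0.00, all within 1.5-fold, while *Map2k1* was at 1.22, *Araf* at 0.77 and *Ksr1* at -0.66. *Nras* (45.2 and 33.9 RPKM, log2 ratio -0.42) was then more than 1.5-fold lower, at -0.75.

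The other feedback genes had 4 of 8 expressed genes more than 1.5-fold lower and none higher, beside 32.0% and 16.3% of all genes. The lower genes were *Spred2* (23.5 and 12.6 RPKM, log2 ratio -0.89), *Spred3* (log2 ratio -1.18), *Dusp5* (log2 ratio -0.85) and *Il17rd* (10.4 and 5.55 RPKM, log2 ratio -0.89), which encodes the FGF signalling inhibitor SEF. *Spred1* (log2 ratio 0.15), *Dusp1* (log2 ratio 0.50), *Dusp7* (log2 ratio -0.07) and *Dusp9* (log2 ratio -0.55) were within 1.5-fold. After the GC correction *Spred3* (-0.62) and *Il17rd* (-0.68) stayed past 1.5-fold, *Spred2* (-0.42) and *Dusp5* (-0.17) did not, and *Dusp1* (1.07) and *Dusp7* (0.67) were more than 1.5-fold higher, so that 2 genes were lower and 2 higher. Of the 14 expressed nuclear targets and effectors, 5 were lower and none higher, a share of lower genes near the 32.0% of all genes: *Ccnd1* (57.0 and 29.9 RPKM, log2 ratio -0.93), *Cic* (log2 ratio -1.13), *Erf* (log2 ratio -0.95), *Srf* (log2 ratio -0.73) and *Elk1* (log2 ratio -0.72). With the GC correction *Ccnd1* (-0.65) stayed past 1.5-fold, while *Erf* (-0.12), *Elk1* (-0.37) and *Srf* (0.27) were within it. *Ets2* (0.67) and *Phlda1* (1.09) were then higher, and *Cic* had no GC value. CIC and ERF are repressors that ERK inhibits, and CIC is known to repress the *Etv4* and *Etv5* genes. *Etv1*, the third ETS gene of the family of *Etv4* and *Etv5*, was within 1.5-fold (5.51 and 6.30 RPKM, log2 ratio 0.19), and *Myc* had a log2 ratio of -0.30.

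**Figure D5:**
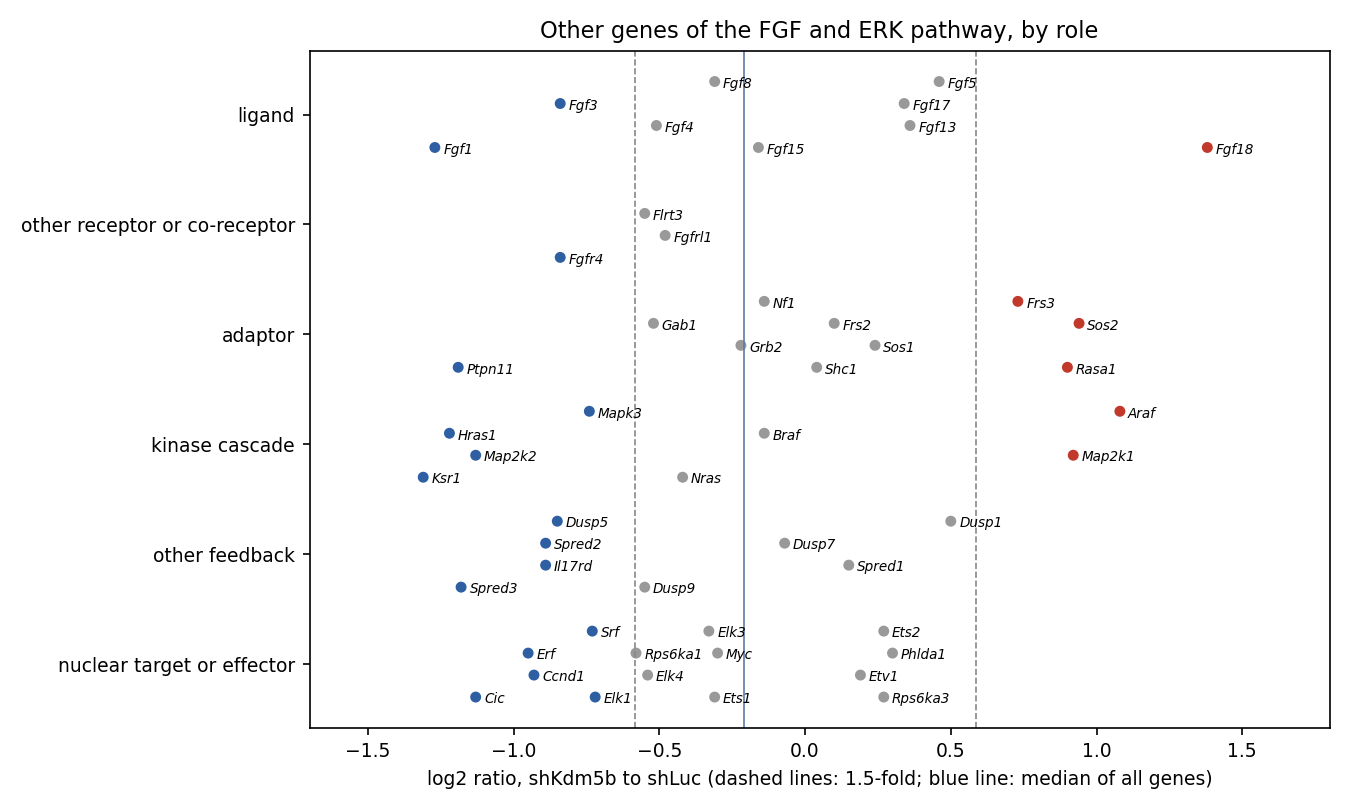
Each point is a pathway gene reported here with an RPKM above 1, placed by role and by its log2 ratio of shKdm5b to shLuc, in red where more than 1.5-fold higher, in blue where more than 1.5-fold lower and in grey where within 1.5-fold. Of the kinase cascade genes plotted, 2 are red and 4 blue, and some genes of the cascade are not plotted. The other feedback genes and nuclear targets hold 9 blue points of 22 and no red point. On this deposited scaling 32.0% of all genes were lower and 16.3% higher. With the GC correction, which is not plotted, *Spred3*, *Il17rd* and *Ccnd1* stayed lower and 4 genes were higher. The shares of all genes were then 17.9% lower and 19.1% higher.

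Markers of cell state were read beside these genes. All 8 ES cell markers had an RPKM above 1, of which 5 were within 1.5-fold, among them *Sox2* (237 and 272 RPKM) and *Nanog* (90.2 and 85.0 RPKM). *Pou5f1* (619 and 182 RPKM) and *Esrrb* (80.5 and 41.2 RPKM) were lower in shKdm5b ES cells, and *Dppa5a* (1100 and 1650 RPKM) was higher. Reads of *Nanog* and *Pou5f1* can be shared with pseudogenes. The epiblast markers *Fgf5*, *Otx2*, *Dnmt3b* and *Pou3f1* were all within 1.5-fold on the deposited scaling. The endoderm markers *Gata4* (2.58 and 0.539 RPKM) and *Gata6* (1.01 and 0.258 RPKM) were lower in shKdm5b ES cells, and the summed RPKM of 4 endoderm markers was 4.45 and 1.17. The mesoderm marker *Eomes* (2.45 and 4.05 RPKM) and the neural marker *Nes* (1.78 and 3.24 RPKM) were higher, with sums over 4 markers each of 2.81 and 4.60 RPKM for mesoderm and 5.21 and 7.54 RPKM for neural cells. The other 3 mesoderm markers were below an RPKM of 1 in both libraries. Of 9 fibroblast markers, which the feeder cells would bring, 2 had an RPKM above 1, *Thy1* (4.08 and 4.59) and *Twist1* (1.95 and 7.05). The sum over all 9 was 6.88 and 12.7, and most of that difference came from *Twist1*. *Col1a1* was at 0.474 and 0.395 RPKM, *Postn* had 3 and 0 reads and *Lum* 2 and 4 reads. These calls are on the deposited scaling, on which 48.3% of all genes were past 1.5-fold. Of the markers with an RPKM above 1, *Fgf5* (log2 ratio 0.68), *Pou3f1* (0.63) and *Sox1* (0.76) were also higher under TMM. After the GC correction *Pou3f1* (1.40), *Sox1* (1.23), *Klf4* (0.75), *Utf1* (0.68) and *Thy1* (0.78) were also higher, and *Esrrb* (-0.31) was within 1.5-fold. The share of all genes was then 37.0%. The part of these cell states in the ratios of the members was not tested.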

How the data were processed

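RNA-Seq of R1 ES cells at 72 h without LIF was analysed, with 1 shLuc and 1 shKdm5b library grouped by title. The authors deposited RPKM values, read counts and lengths for 27405 RefSeq transcript entries, and the positions of the aligned reads. The submitters' processing notes name Bowtie 0.12.7 and the build mm8, and the counting program is not given in the sources used here. Each deposited read record spans 50 bases without a gap, so reads across splice junctions are absent. The study's methods name edgeR. With 1 library per condition edgeR cannot estimate a dispersion. Genes were called by a fold change above 1.5 with RPKM above 1 in either library, which are 2 of the criteria of the paper. The FDR below 0.001 that the paper also sets was not applied to these calls.

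The log2 ratio used a pseudocount of 0.1, and intervals were exact at 95%. Alternatives were pseudocounts of 1 and 0.01, TMM and median of ratios scaling, summed entries, lowess corrections (fraction 0.3) for GC content and for length, other thresholds, and the edgeR exact test on counts at an assumed dispersion of 0 or 0.04 (FDR below 0.001), which compares libraries and not conditions. The exact test used TMM factors, while the fold and RPKM thresholds kept with it were on the deposited scaling. The test at 0.01, the wider intervals and the subtraction of *Fgfr1* and *Fgfr2* entries were added after seeing the data. GC content came from GENCODE M21 transcripts matched by RefSeq accession (97.1% of symbols), and coordinates are of GRCm38, not of the alignment. Motifs were searched on both strands. The thresholds, intervals, exact test and GC correction were run on simulated counts with known changes and counting error only. The simulation held no repeated reads and no spread between replicates, so it cannot show how the intervals and calls fare with either. Tools were Python 3.11.15, pandas 2.3.3, NumPy 2.4.6, SciPy 1.17.1, statsmodels 0.14.6, matplotlib 3.10.9, R 4.3.3 and edgeR 4.0.16. The members and lists were chosen with earlier results of these data known. The named genes are the members and the listed pathway and immediate early genes, those past the thresholds and others by role. Some genes of the kinase cascade are not reported here by name and not plotted, and are included in the counts over the pathway list.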

Additional observations from a re-analysis of the deposited data

How the results depend on the processing

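No paired analysis was possible because there is only 1 library of each kind, which also leaves no replicate to omit. The number of members past the thresholds, 5, became 3 at a fold change above 2 (*Spry4*, *Dusp4* and *Etv4*) and 0 in the exact test at a dispersion of 0.04, and stayed within 1.5 times 5 otherwise. At a fold change above 2 the 25 pathway genes became 10 of 55 and the 7 immediate early genes 2 of 14, beside 22.8% of all genes. At a dispersion of 0.04 both became 0, beside 2.30% of all genes. With RPKM above 11 the pathway count was 14 of 27 and the immediate early count 4 of 8, beside 47.6% of all genes. The pathway count on the deposited scaling was made of 7 higher and 18 lower genes of 55. With correction for GC and length it was 16 of 54, with 13 higher and 3 lower. The shares of all genes were then 15.9% higher and 16.3% lower. The exact test used TMM factors, unlike the fold threshold kept with it, and the part of this scaling in its counts was not tested. At a dispersion of 0.01 the pathway count was 14, with 7 higher and 7 lower, beside 31.3% of all genes. The member median, -0.34, was -0.13 under TMM, -0.11 under the median of ratios, -0.01 with the GC correction and 0.05 with correction for GC and length. The pathway median, -0.31, was -0.11, -0.10, -0.09 and 0.04 in that order, and the immediate early median, 0.15, was 0.34, 0.35, 0.52 and 0.50. Beside these, the median over all genes, -0.21, was 0.01, 0.03, -0.02 and 0.00 in the same order. Without an RPKM threshold the immediate early median was -0.05, and with RPKM above 11 it was 0.27 and the pathway median -0.51, over other genes. The threshold alternatives for medians were added after seeing the data. The scalings multiply all RPKM values of a library alike, and the cause of the other shifts was not tested. No dispersion can be estimated from these libraries.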
